A study of Mus musculus with 12 samples.

Results

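The genes described here are 10 transcripts widely used as markers of macrophages, measured in the mouse pituitary after vitamin D deficiency: Csf1r, Cd14, Mrc1, Cd163, Tyrobp, Fcer1g, Cd68, Ctss, Lyz2 and Aif1. They were taken by symbol or synonym from the gene names of the array, leaving out control spots. This gave 13 of 39429 probes and all 10 genes, none of them through a synonym. A signal well above background was required in 4 or more of the 12 samples, which 12 of these probes met, and 9 of the 10 genes entered a fit over 19123 genes. The missing gene is Cd163.

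Pituitaries came from 12 adult C57BL/6J females, an inbred strain, at 2 months of age, 4 in each diet group. Early life mice had lacked dietary vitamin D only early in life, peripubertal mice only around puberty, and control mice ate a normal diet throughout. The exact windows and the vitamin D status reached are not given in the sources used here. Animals are biological replicates per the labels. Each of the 6 two-colour Agilent arrays carried 2 animals of 1 group, one in Cy3 and one in Cy5, and these animals are treated as linked. One slide held both control arrays and another the 4 arrays of the deficient groups. The slides were scanned on different days. In a comparison with control, slide and scan day cannot be told apart from the diet, while early life and peripubertal mice shared both.

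The tissue carried the hormone transcripts of the gland, with Gh, Prl, Pomc and Cga each within the 164 brightest genes of every sample in which they had a value. Spots well above background made up 50.6% to 59.7% in early life samples, 57.9% to 67.2% in peripubertal samples and 61.0% to 66.3% in control samples. The quality marks of the scanner software removed 6.54% to 7.34% of spots on early life arrays, 3.85% to 5.08% on peripubertal arrays and 1.68% to 1.90% on control arrays. Precision is limited by the small number of arrays. The authors' value table assigns the scanned channels of the deficient groups the other way round: each of its 8 columns for these mice equals, within 1e-06 on the log2 scale, a channel that the scanner files place in the other deficient group. Group names here follow the scanner files and nothing in the files decides between the 2 assignments. Under the table's names every early life value below is a peripubertal one and the reverse.

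Macrophages are phagocytes that live in most tissues, where they clear debris and dying cells and sense microbes. In the pituitary they lie near the capillaries and among the hormone cells. Their survival depends on CSF1R, the receptor for the growth factors CSF1 and IL34. Many of their activating receptors have no signalling tail of their own and pair with the adaptors TYROBP (DAP12) or FCER1G, whose tails carry tyrosine motifs that recruit the kinase SYK. CD14 has a different task, handing bacterial lipopolysaccharide to the receptor complex of TLR4 and LY96, and cells other than macrophages can make it when stimulated. In bulk RNA, fewer cells of a type and less RNA per cell cannot be told apart.

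Cd14 was higher in all 4 early life pituitaries than in any of the 8 others, with a mean 2.42-fold that of control pituitaries. By the probe that stands for each gene, the other 8 markers in the fit all had a lower mean in early life than in control or peripubertal pituitaries. The median shortfall was 0.29 and 0.59 on the log2 scale, though 1 of the 8, Lyz2, was above background in only 1 early life sample. Another Csf1r probe went the other way, at 0.12 against control and 0.55 against peripubertal (SE 0.15 each). Tyrobp and Cd68 had values in only 2 early life samples, and Ctss in only 2 peripubertal ones. No marker passed an adjusted p of 0.05 in any comparison, Cd14 included (limma, Benjamini-Hochberg over all genes). The share of all genes called was 0.0977% for early life against control (18 of 18420), 0.0213% for peripubertal against control (4 of 18804) and 0.131% for early life against peripubertal (24 of 18275). At an unadjusted p under 0.05, 1, 0 and 2 of the 9 markers passed in those 3 comparisons, beside 16.1%, 4.7% and 19.3% of all genes.

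**Figure D1:**
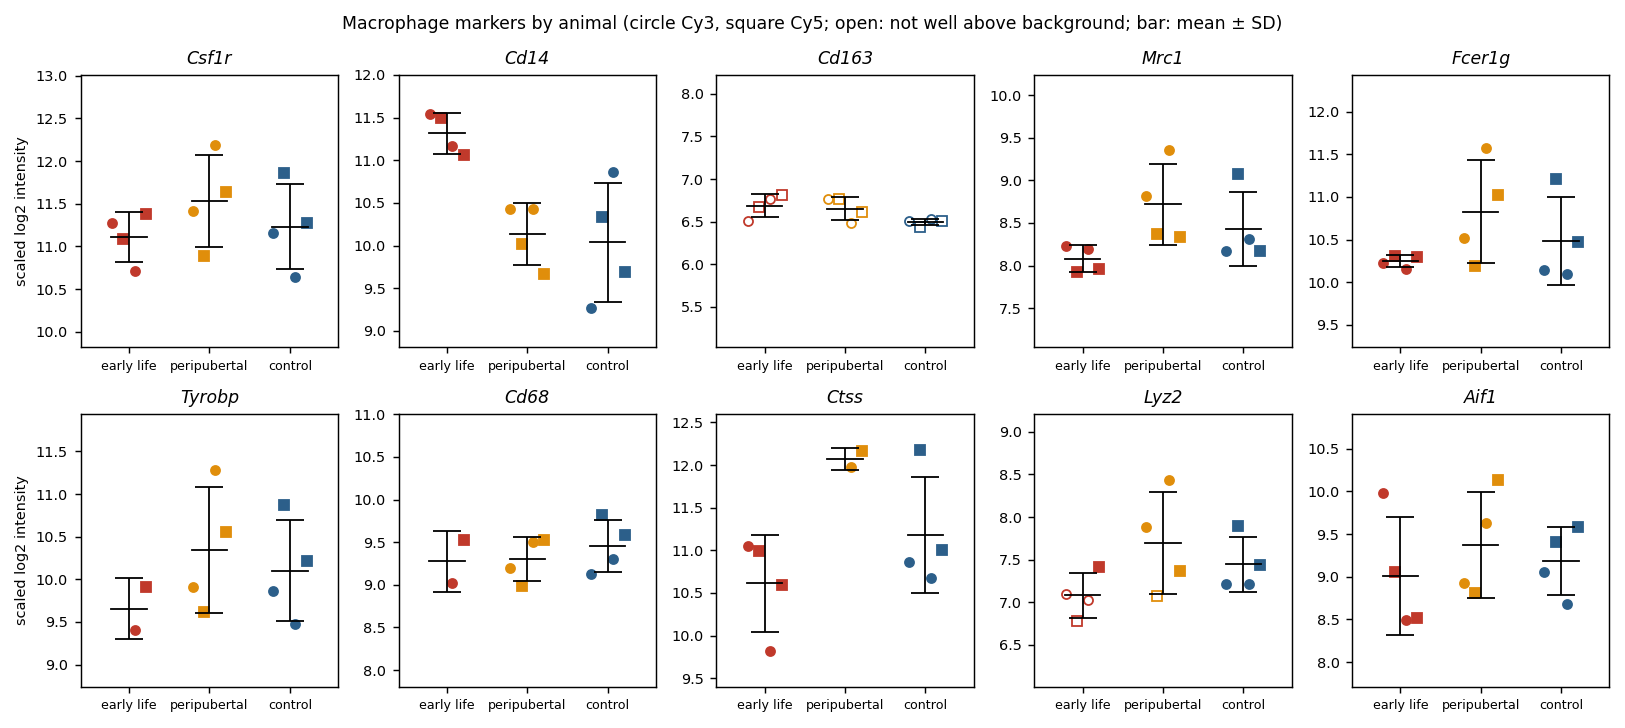
Scaled log2 intensity of the probe that stands for each of the 9 markers in the fit, and of the Cd163 probe, grouped by diet. Each point is an animal with a value. Bars give mean ± SD, circles Cy3, squares Cy5, and open symbols values not well above background. Cd14 is the marker whose 4 early life values all lie above the 8 others, and Cd163 is open throughout.

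Sequences of 3 probes show what the arrays read at the weak or missing signals and at a central adaptor. The Cd163 and Lyz2 probes are shown because Cd163 gave no signal above background and Lyz2 a weak one, and the Tyrobp probe because it crosses an exon junction and reads the signalling motif. Each is given 5′ to 3′ on the transcript's strand, in build mm9 as the array files locate it. Capitals in Tyrobp mark 4 codons that begin with a tyrosine codon of its signalling motif. No capitals are used in the others.

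Cd163: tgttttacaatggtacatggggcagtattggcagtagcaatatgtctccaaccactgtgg

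Lyz2: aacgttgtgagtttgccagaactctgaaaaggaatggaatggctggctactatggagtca

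Tyrobp: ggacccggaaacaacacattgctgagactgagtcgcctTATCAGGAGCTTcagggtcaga

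The Cd163 probe lies at chr6:124270436-124270495 on the plus strand, the Lyz2 probe at chr10:116719175-116719234 on the minus strand, and the Tyrobp probe matches the plus strand of chr7:31200651-31202378, a span of 1728 bases for a probe of 60. Each sequence has an open reading frame through its whole length.

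Csf1r, the receptor on which macrophages depend for survival, was read by 3 probes on chromosome 18. The brightest, which stands for the gene, read 11.27, 11.09, 10.71 and 11.38 in early life samples, 11.42, 10.89, 12.19 and 11.64 in peripubertal samples and 11.16, 11.86, 10.64 and 11.27 in control samples (scaled log2 intensity, animals 1 to 4 here and below). The groups overlapped, with peripubertal 3 highest and control 3 lowest. The mean log2 difference was -0.12 for early life against control (SE 0.36, 95% interval -0.92 to 0.67), 0.30 for peripubertal against control (SE 0.36) and -0.42 for early life against peripubertal (SE 0.36), with limma adjusted p = 0.894, 1 and 0.533. Dim spots around this probe on the array of control 1 and 2 deviated by -0.34 from their level on the other arrays, and without that array's spot the difference for early life against control was 0.15 (SE 0.43).

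The probes of Csf1r differed in the order of the groups. The probe at transcript base 1841 averaged 9.79 ± 0.15 in early life, 9.23 ± 0.25 in peripubertal and 9.67 ± 0.07 in control samples (SD, n = 4 each). All 4 peripubertal values, 9.03, 9.01, 9.45 and 9.45, lay below every early life and every control value, an arrangement seen in 12.4% of genes against early life and in 5.56% against control. In a fit of every kept probe, the difference was 0.12 for early life against control (SE 0.15, limma adjusted p = 0.716), -0.43 for peripubertal against control (SE 0.15, limma adjusted p = 0.933) and 0.55 for early life against peripubertal (SE 0.15, limma adjusted p = 0.123), opposite in sign to the brightest probe in all 3. The probe at base 2871 followed the brightest probe in sign in all 3 comparisons, at -0.21, 0.18 and -0.39 (SE 0.25 each), and averaged 7.71 ± 0.27 in early life, 8.09 ± 0.35 in peripubertal and 7.92 ± 0.39 in control samples (SD, n = 4 each). It was not well above background in early life 3. Dim spots around it on the array of early life 1 and 2 deviated by 0.51 from their level on the other arrays. The sign for Csf1r depends on the probe.

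**Figure D2:**
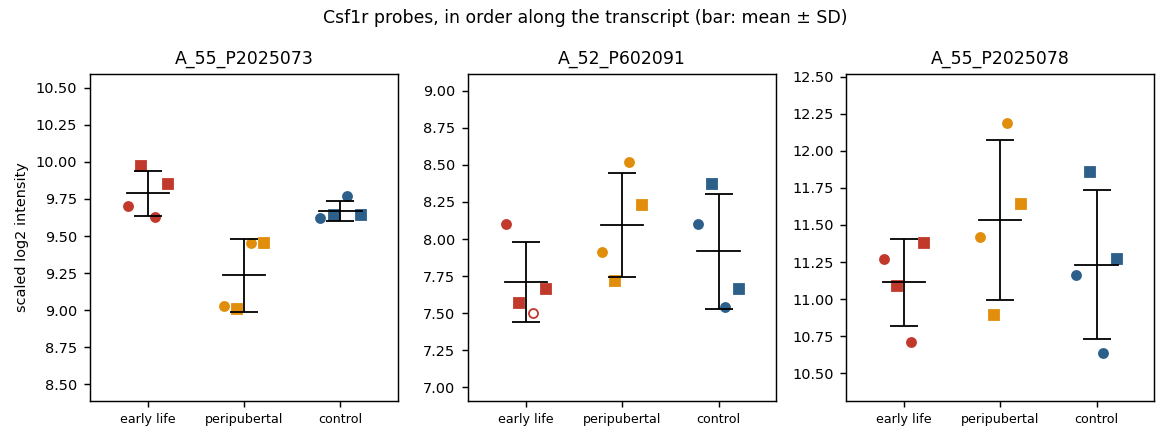
Scaled log2 intensity of the 3 Csf1r probes by animal and diet group, ordered by start along the transcript (bases 1841, 2871 and 3806; bar, mean ± SD). The peripubertal samples are lowest at the first probe and highest on average at the other two.

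Neither ligand gene of CSF1R passed in any comparison. Csf1 averaged 9.41 ± 0.14 in early life, 9.71 ± 0.12 in peripubertal and 9.49 ± 0.16 in control samples (SD, n = 4 each), and Il34 averaged 8.97 ± 0.74, 8.95 ± 0.26 and 8.99 ± 0.31 in the same order. Their log2 differences for early life against control were -0.08 (SE 0.13) and -0.02 (SE 0.31).

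Cd14, the lipopolysaccharide co-receptor, read 11.54, 11.50, 11.17 and 11.06 in early life samples. The values were 10.43, 10.02, 10.43 and 9.67 in peripubertal samples and 9.27, 10.33, 10.86 and 9.69 in control samples. Every early life value lay above every other, the nearest being control 3, while peripubertal and control samples overlapped. Among all genes, 7.95% had all early life values above all control values, and 12.4% had all early life values above all peripubertal ones.

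The means of Cd14 were 11.32 ± 0.24 in early life, 10.14 ± 0.37 in peripubertal and 10.04 ± 0.70 in control samples (SD, n = 4 each). Early life exceeded control by 1.28 on the log2 scale (SE 0.40, 95% interval 0.41 to 2.15, limma adjusted p = 0.192), and 82 of 18420 genes (0.445%) had a difference as large or larger. It exceeded peripubertal, with which it shared a slide, by 1.18 (SE 0.40, 95% interval 0.31 to 2.05, limma adjusted p = 0.164), a size reached by 0.99% of genes. Both differences rest on the same 4 early life samples. Peripubertal differed from control by 0.10 (SE 0.40, 95% interval -0.77 to 0.97, limma adjusted p = 1).

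The call on Cd14 depended on the model. Without the array as a block, adjusted p was 0.0438 against control, where 3.3% of all genes passed, and 0.0402 against peripubertal, where 7.28% did. With the marked spots left out before scaling, limma adjusted p was 0.0264 against control, at a log2 difference of 1.65. There the median of all genes stood at 0.31 and 16.6% of all genes passed. That order was tried after seeing the data. The main order, with marked spots left out after scaling, was also settled after seeing the counts of calls.

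Genes of toll-like receptor signalling were taken as a list, which holds the lipopolysaccharide route and also toll-like receptors for other ligands. None of the 23 genes tested of a list of 25, drawn from the toll-like receptors and their adaptors and kinases, passed for early life against control, and 10 of 23 had a positive difference, with a median of -0.01, beside 53.5% positive and a median of 0.03 over all genes. Tlr4, the signalling receptor, averaged 9.05 ± 0.27 in early life, 8.97 ± 0.11 in peripubertal and 9.14 ± 0.21 in control samples (SD, n = 4 each). Ly96, its lipopolysaccharide-binding partner, differed by -0.27 from control (SE 0.17) on 2 early life samples. Among 21 genes for NF-kB subunits and NF-kB targets, 11 were positive for early life against control, with a median of 0.00 and none past the threshold.

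Mrc1, the mannose receptor that takes up glycoproteins, read 8.23, 7.93, 8.20 and 7.96 in early life samples, 8.81, 8.37, 9.35 and 8.34 in peripubertal samples and 8.17, 9.07, 8.31 and 8.17 in control samples. All early life values lay below all peripubertal ones, as in 9.93% of genes, and peripubertal 3 and control 2 stood high. The log2 difference was -0.64 for early life against peripubertal (SE 0.32, limma adjusted p = 0.3), -0.35 for early life against control (SE 0.32) and 0.29 for peripubertal against control (SE 0.32).

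Cd163, the scavenger receptor for hemoglobin bound to haptoglobin, was not well above background in any of the 12 samples. Its readings ran from 6.51 to 6.81 in early life, 6.48 to 6.76 in peripubertal and 6.44 to 6.53 in control samples, and no difference is given. Of 8 genes for hemoglobin and heme uptake and for iron handling, 7 were in the fit and none passed in any comparison. Slc40a1, the iron exporter ferroportin, averaged 8.90 ± 0.22 in early life, 9.60 ± 0.16 in peripubertal and 9.22 ± 0.31 in control samples (SD, n = 4 each), a difference of -0.70 for early life against peripubertal (SE 0.19, limma adjusted p = 0.121).

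The adaptor genes are Fcer1g and Tyrobp. Fcer1g, the shared gamma chain of activating Fc receptors, read 10.23, 10.31, 10.15 and 10.30 in early life samples, 10.52, 10.19, 11.57 and 11.02 in peripubertal samples and 10.14, 11.21, 10.10 and 10.47 in control samples. Early life samples lay within 0.16 of each other, while the other groups spread over more than 1 on the log2 scale. Its differences were -0.23, 0.35 and -0.58 for early life against control, peripubertal against control and early life against peripubertal (SE 0.36 each; limma adjusted p = 0.777, 1 and 0.382).

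Tyrobp, the DAP12 adaptor of TREM2 and related receptors, lost array 3 to quality marks and so had no value in early life 1 and 2. It read 9.40 and 9.91 in early life 3 and 4, 9.91, 9.62, 11.28 and 10.55 in peripubertal samples and 9.86, 10.87, 9.47 and 10.21 in control samples. Again peripubertal 3 and control 2 were highest. Its differences were -0.45 (SE 0.57), 0.24 (SE 0.46) and -0.69 (SE 0.57) in the same order, and none passed.

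Partners of the 2 adaptors showed no call either. Of 19 receptors and kinases listed as partners, 12 were in the fit and none passed in any comparison. In the order above, 3 of 12, 9 of 12 and 3 of 12 were positive, with medians of -0.14, 0.15 and -0.37. Among all genes 53.5%, 51.4% and 53.9% were positive. Trem2, a lipid-sensing receptor that signals through TYROBP, averaged 7.95 ± 0.41 in early life, 8.34 ± 0.38 in peripubertal and 8.38 ± 0.54 in control samples (SD, n = 4 each). Trem1, an amplifier of inflammatory signals, had the smallest p, at -0.55 for peripubertal against control (SE 0.14, limma adjusted p = 0.553).

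The lysosomal markers were Cd68, Ctss and Lyz2. Cd68, a glycoprotein of late endosomes and lysosomes, also lacked early life 1 and 2. It read 9.02 and 9.53 in early life 3 and 4, 9.20, 8.99, 9.50 and 9.52 in peripubertal samples and 9.13, 9.82, 9.30 and 9.58 in control samples. The groups overlapped fully and its differences were small, at -0.18 (SE 0.27), -0.15 (SE 0.22) and -0.03 (SE 0.27) in the order above. A weaker Cd68 probe was well above background in 0 early life, 2 peripubertal and 3 control samples, and no difference is given for it.

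Ctss, a cysteine protease that trims antigen in endosomes, lacked peripubertal 1 and 2. It read 11.05, 10.99, 9.82 and 10.59 in early life samples, 11.98 and 12.16 in peripubertal 3 and 4, and 10.86, 12.18, 10.67 and 11 in control samples. Both peripubertal values lay above every early life value, an arrangement seen in 9.93% of genes and easier to reach with 2 values than with 4, and control 2 lay above them. The log2 difference for early life against peripubertal was -1.45 (SE 0.45, 95% interval -2.47 to -0.44, limma adjusted p = 0.155). It rests on peripubertal 3 and 4 alone. Of 12 genes for other lysosomal proteases, their inhibitors and membrane proteins, 10 were tested for early life against control and none passed. Of the 10, 7 were positive, beside 53.5% of all genes. Ctsc, a protease that activates those of granules, was at -0.95 (SE 0.32, limma adjusted p = 0.220).

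Lyz2, lysozyme, was dim: it was well above background in 1 early life, 3 peripubertal and 4 control samples. It read 7.10, 6.78, 7.03 and 7.42 in early life samples, 7.88, 7.08, 8.44 and 7.37 in peripubertal samples and 7.22, 7.90, 7.22 and 7.44 in control samples. The groups overlapped. The differences were -0.36, 0.25 and -0.61 (SE 0.36 each), and none passed.

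Aif1, the calcium-binding protein IBA1 of the macrophage cytoskeleton, read 9.98, 9.05, 8.49 and 8.52 in early life samples, 8.93, 8.81, 9.63 and 10.13 in peripubertal samples and 9.06, 9.41, 8.68 and 9.58 in control samples. The 3 differences were -0.17, 0.19 and -0.37 (SE 0.43 each). Dim spots around it on the array of early life 3 and 4 deviated by 0.43 from their level on the other arrays, and without that array the difference from control was 0.33 (SE 0.46).

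**Figure D3:**
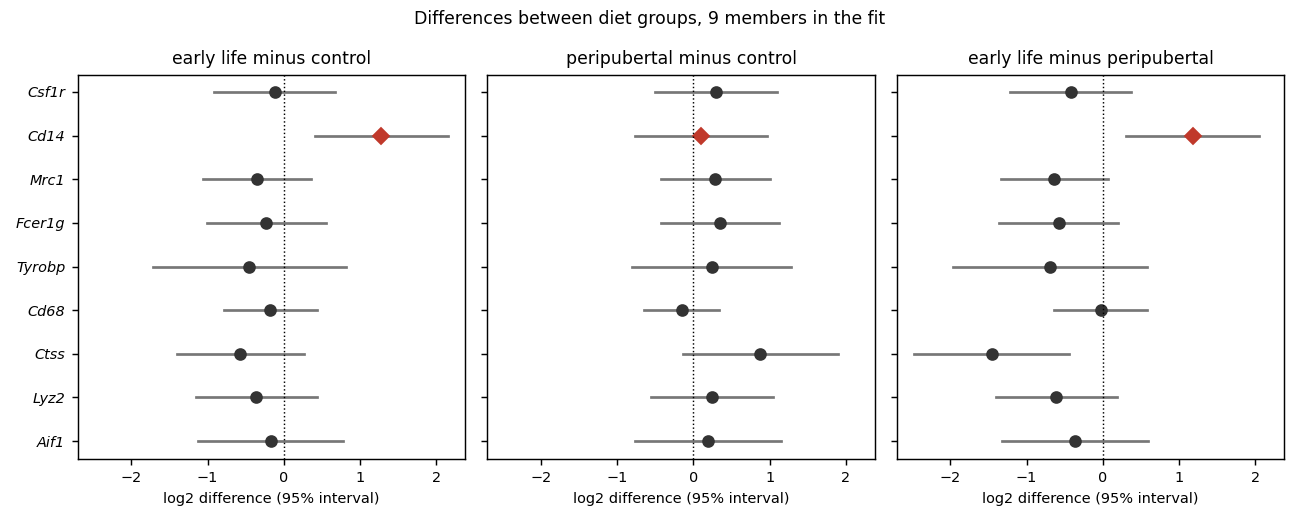
Log2 differences with 95% intervals of the 9 markers in the fit for the 3 comparisons. Cd14 (diamond) lies at 1.28 and 1.18 where early life is the first group, while the other 8 lie below 0 there, from -0.57 to -0.12 and from -1.45 to -0.03.

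Across the 8 markers other than Cd14, the differences for early life against control ran from -0.57 (Ctss) to -0.12 (Csf1r) and all 8 were negative, where 53.5% of all genes were positive. Lyz2 entered the fit through its peripubertal and control values. With every sample required above background, 7 others were left, of which 0 were positive for early life against control (median -0.23) and 0 for early life against peripubertal (median -0.58). The sign was not stable for all of them. For early life against control, with each sample centred on its median, Csf1r was at 0.10. With marked spots left out before scaling, 4 of 8 were positive there. For peripubertal against control 7 of 8 were positive, with a median of 0.27, from -0.15 (Cd68) to 0.88 (Ctss), beside 51.4% of all genes. Without the array of peripubertal 3 and 4, 2 of the 7 left were positive and the median was -0.12. For early life against peripubertal all 8 were negative, with a median of -0.59, beside 53.9% of genes positive. Without the array of peripubertal 3 and 4, 2 of 7 were positive there and the median was -0.11. The comparisons share groups and so are not independent of each other. The 8 markers also varied together across samples (median Pearson r of 0.76 over their pairs), so their signs are not independent counts.

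The markers were compared in each sample as deviations from their own mean over the 12 samples. For Csf1r, Aif1, Mrc1, Lyz2 and Fcer1g, the 5 others with all values, the mean deviation was 0.87 in peripubertal 3, 0.52 in control 2 and 0.34 in peripubertal 4, and lay between -0.45 and 0.15 in the other 9 samples. All 5 markers were above their own means in peripubertal 3 and in control 2. Cd14 stood at -0.07 and -0.16 in those 2 samples, though its mean over the 12 samples includes the 4 high early life values. Against its own group Cd14 was also above the mean in both, at 10.43 in peripubertal 3 (group mean 10.14) and 10.33 in control 2 (group mean 10.04).

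Cd14 less the mean of these 5 was 1.04, 1.34, 1.12 and 0.81 in early life samples, -0.22, -0.18, -0.94 and -1.16 in peripubertal samples and -1.01, -0.69, 0.73 and -0.83 in control samples. Control 3 was the only sample outside early life with a positive value, close to the lowest early life one. The group means were 1.08 ± 0.22 in early life, -0.63 ± 0.50 in peripubertal and -0.45 ± 0.80 in control samples (SD, n = 4 each). Cd14's log2 difference for early life against control exceeded the median of the 8 others by 1.57, and by 1.77 for early life against peripubertal. These are descriptions, with no test.

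**Figure D4:**
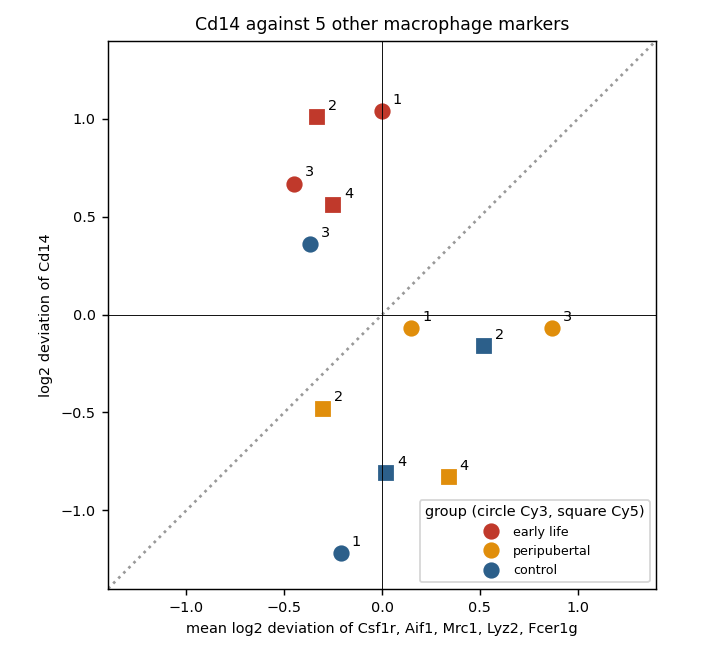
Log2 deviation of Cd14 from its mean over 12 samples, set against the mean deviation of 5 other markers (circles, Cy3; squares, Cy5; numbers, replicates; dotted line, equal deviations). The 4 early life samples lie above the line by 0.81 to 1.34, with control 3 at 0.73 and the other 7 samples below it.

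Across the 12 samples, with the mean of each dye taken off, the 28 pairs among the other 8 markers had Pearson r from 0.30 to 0.97, with a median of 0.76. The closest were Tyrobp and Fcer1g (r = 0.97 over 10 samples) and Csf1r and Tyrobp (r = 0.96 over 10 samples). The 8 pairs with Cd14 ran from -0.38 to 0.07, with a median of -0.23. With group means also taken off, the medians were 0.76 and 0.21. These values describe 6 arrays whose 2 samples share a hybridisation.

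Among 10733 genes with all values, those most like Cd14 across the samples were Agfg2 (r = 0.960), Ankrd37 and Crtc3 (0.953 each), Pde1c (0.950) and Maff (0.947). Maff, a small basic leucine zipper factor, differed by 1.61 for early life against control (limma adjusted p = 0.207), and Agfg2 by 0.53 (adjusted p = 0.228). The genes most like the mean of the other 5 markers were Selplg (r = 0.971), C1qc (0.953), Sirpb1a (0.947), Il10ra (0.946) and Arhgap45 (0.939). Of these Selplg is the selectin ligand of white blood cells, C1qc a chain of complement C1q and Il10ra a chain of the interleukin 10 receptor. The 2 sets of 5 had no gene in common, which follows from the negative correlations of Cd14 with those 5 markers and adds nothing to them. Each r is over 12 samples and is a description.

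A wider list held 46 macrophage genes. None of its 38 genes in the fit passed in any comparison. For early life against control 7 of 37 were positive (median -0.20), beside 53.5% of all genes. For peripubertal against control 28 of 38 were positive (median 0.16), beside 51.4%. For early life against peripubertal 4 of 37 were positive (median -0.39), beside 53.9%. The mean deviation of the 35 genes with all values was highest in peripubertal 3, at 0.63, and control 2, at 0.50. Early life samples, from -0.35 to -0.03, overlapped control samples, from -0.24 to 0.50, and peripubertal samples, from -0.14 to 0.63. C1qb, another C1q chain, had 9.62 ± 0.22 in early life, 10.30 ± 0.24 in peripubertal and 10.18 ± 0.33 in control samples (SD, n = 4 each), a difference of -0.56 from control (SE 0.22, limma adjusted p = 0.257). Ptprc, the pan-leukocyte phosphatase CD45, averaged 7.38 ± 0.10 in early life, 8.56 ± 0.83 in peripubertal and 7.92 ± 0.22 in control samples (SD, n = 4 each), a difference of -1.17 for early life against peripubertal (SE 0.36, limma adjusted p = 0.141). Adgre1, an adhesion receptor of mature macrophages, averaged 8.23 ± 0.26 in early life, 8.85 ± 0.37 in peripubertal and 8.76 ± 0.37 in control samples (SD, n = 4 each). Cx3cr1, the fractalkine receptor, differed by -0.55 from control (SE 0.60). Itgam, an integrin of myeloid cells, had the opposite sign, at 0.43 for early life against control (SE 0.23) and 0.79 for early life against peripubertal (SE 0.23, limma adjusted p = 0.141), on 2 early life samples. Its probe was bright, averaging 15.3 in early life, 14.51 in peripubertal and 14.87 in control samples, and what it reads in this tissue was not tested.

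Genes of blood cells were measured beside the markers. The mean log2 deviation of 8 neutrophil genes was 2.62 in peripubertal 3 and 0.77 in control 2, and lay between -0.65 and 0.17 in the other 10 samples. S100a8, one of the neutrophil genes, ran from 8.03 to 10.12 in early life, 8.93 to 14.69 in peripubertal and 8.09 to 12.80 in control samples. For 5 erythroid genes the deviation ran from -1.24 to -0.12 in early life, 0.23 to 1.82 in peripubertal and -0.91 to 1.05 in control samples. Erythroid genes stood at 1.82 in peripubertal 3, the highest sample, and at 0.78 in control 2, below control 1 and peripubertal 1. The 3 T cell genes with all values lay between -0.14 and 0.19 in all samples, with -0.05 in peripubertal 3 and 0.11 in control 2, and the 3 B cell genes stood at 0.03 and -0.15 there. All 7 erythroid genes tested were negative for early life against control, with a median of -1.08, and none passed. Among all genes 53.5% were positive in this comparison. The part of blood cells in the marker values was not tested.

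Stimulus-responsive genes were measured as a pair of lists. Of 21 immediate early genes tested, 17 were positive for early life against control, with a median of 0.49 and none past the threshold, and 10 of 22 were positive for peripubertal against control, with a median of -0.01. All 13 glucocorticoid-responsive genes tested were positive for early life against control, with a median of 0.65 and none past the threshold. Nfkbia was among them at 0.00 (SE 0.36), and it and several others had values in only 2 early life samples. For peripubertal against control 10 of 16 were positive, with a median of 0.15. Among all genes 53.5% and 51.4% were positive in these 2 comparisons. The mean deviation of 14 immediate early genes ran from 0.11 to 0.84 in early life, -0.54 to -0.04 in peripubertal and -0.62 to 0.07 in control samples. For 6 glucocorticoid-responsive genes it ran from 0.19 to 0.92, -0.58 to -0.17 and -0.92 to 0.48 in the same order. Early life and control samples thus overlapped for these 6, with control 3 at 0.48 and early life 3 at 0.19. Arc, an activity-induced gene, averaged 11.43 ± 0.75 in early life, 9.53 ± 0.34 in peripubertal and 9.48 ± 0.94 in control samples (SD, n = 4 each; 1.95 against control, SE 0.56, limma adjusted p = 0.173). Errfi1, a feedback inhibitor of growth factor receptors, averaged 13.71 ± 0.42, 11.49 ± 0.28 and 11.85 ± 0.88 in the same order (1.86 against control, SE 0.48, limma adjusted p = 0.151). The part of such a response in the Cd14 values was not tested.

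**Figure D5:**
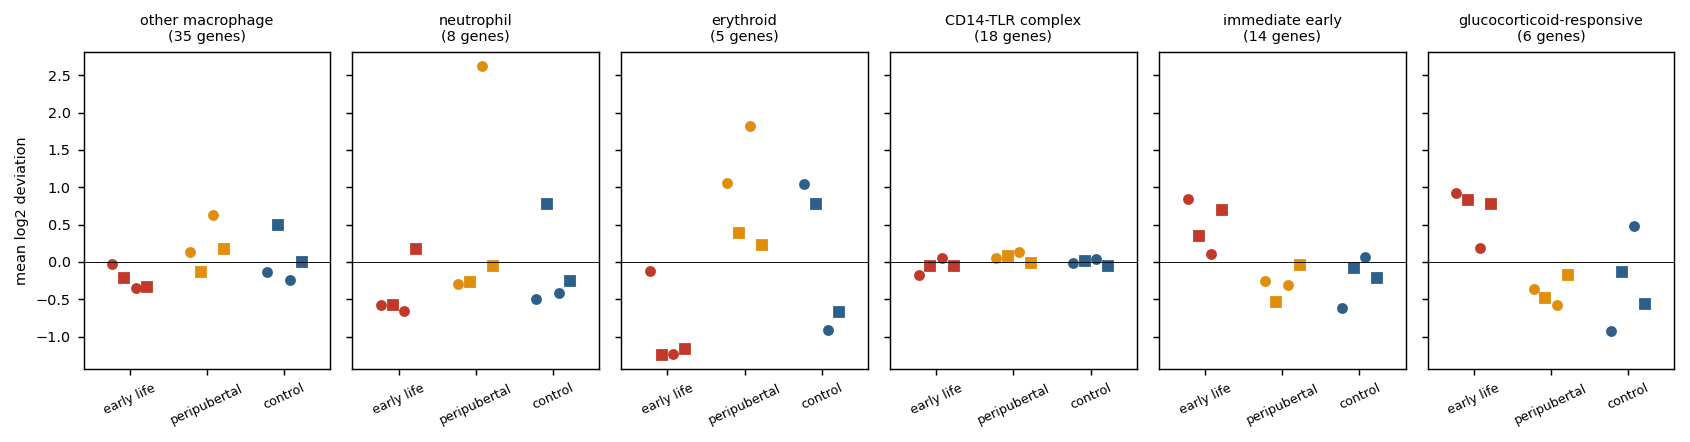
Mean log2 deviation of 6 gene lists in each animal, by diet (circles, Cy3; squares, Cy5; genes with all values counted above each panel). Peripubertal 3 stands at 2.62 for neutrophil genes and 1.82 for erythroid genes, and the 4 early life samples lie above the 4 peripubertal ones for immediate early and glucocorticoid-responsive genes. For glucocorticoid-responsive genes control 3, at 0.48, lies above early life 3, at 0.19.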

How the data were processed

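RNA from 12 pituitaries was hybridised to 6 Agilent 2-colour arrays. The deposited scanner files hold spot intensity, background intensity and quality marks from Agilent Feature Extraction 11.0.1.1, with probe positions in mm9, per the file headers. The deposited value table holds log2 values, column medians about 0, and served as an alternative; what the authors did for its 4 control columns, which equal no scanned channel, is not given in the sources used here. Mean intensity was corrected by normexp (offset 50), scaled by loess and Aquantile, marked spots were then left out (the order was settled after seeing the counts of calls, as was estimating the array correlation over genes with all values) and replicate spots averaged. The brightest of the 24647 probes well above background in at least 4 samples stood for its gene. limma 3.58.1 in R 4.3.3 was fitted gene by gene, modelling diet group and dye, and taking the array as a random block (correlation 0.342, 8 residual and 3.34 prior degrees of freedom), two-sided, adjusted by Benjamini-Hochberg over all genes of a comparison, and was tested on simulated data: the differences were recovered without bias, while the array correlation was estimated below the simulated one, so the true one may be higher and the p-values too small. Log2 differences had a median standard error of 0.19.

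Gene names follow the array files, updated through RefSeq tables by accession for 27241 probes, by symbol for 3574 and by synonym for 564, with 8050 unmatched. The members and gene lists were chosen with earlier results of these data known. All 10 members are named. Of each list, genes past the threshold are named, otherwise at most the 3 of smallest p, beside defining markers, and the 5 genes most like Cd14 and most like the mean of the others. Alternatives were other corrections, scalings, filters, probe rules, models and leaving out each sample or array. Lists of T cells, B cells, dendritic cells, mast cells, endothelium, fibroblasts, folliculostellate and stem cells and hormones were also measured.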

Additional observations from a re-analysis of the deposited data

Results flagged for a closer look

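Values of single animals stood apart from the other 3 of their group, by a gap whose share of the group's range passed Dixon's critical value for 4 samples. Chance does this for about 1 in 20 groups, and 7 of 96 groups did so. Among the markers, Mrc1 in control 2 read 9.07 against 8.17 to 8.31 in the other control samples, and the Csf1r probe at transcript base 1841 in control 3 read 9.77 against 9.62 to 9.64.

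Among the list deviations (log2), neutrophil genes stood at 2.62 in peripubertal 3 against -0.29 to -0.05 in the other peripubertal samples, and at 0.17 in early life 4 against -0.65 to -0.57 in the other early life samples. Erythroid genes stood at -0.12 in early life 1 against -1.24 to -1.17. Lysosomal genes stood at -0.03 in peripubertal 2 against 0.12 to 0.15, and hormone genes at -0.45 in peripubertal 1 against 0.11 to 0.22.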

How the results depend on the processing

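Of 567 values of single markers under alternatives other than leaving out 1 sample, 532 kept their sign and their side of the threshold, 32 changed sign and 3 passed it, all 3 for Cd14. Cd14 passed at 1.28 against control and 1.18 against peripubertal without the array block, and at 1.65 against control with marked spots left out before scaling, so 1 of 9 markers was called in each of these, against 0, beside 3.3%, 7.28% and 16.6% of all genes. That order was added after seeing the data, as was leaving out arrays. The main order was likewise settled after seeing the counts of calls. Leaving marked spots out before scaling put the median of all genes at 0.31 (early life against control), 0.13 (peripubertal against control) and 0.19 (early life against peripubertal). Cd14 stood 1.34, 0.15 and 1.18 above those. Apart from these and from leaving out 1 sample, Cd14 had adjusted p from 0.0619 to 0.487 against control and, with its sign kept, from 0.0676 to 0.54 against peripubertal. With the array correlation taken over every gene, also added later, they were 0.165 and 0.14. Under the value table's own sample names every sign turned for early life against peripubertal: Cd14 -1.21, Aif1 0.42, Cd68 0.05, Csf1r 0.43, Ctss 0.72, Fcer1g 0.69, Lyz2 0.62, Mrc1 0.72, Tyrobp 0.45, and Cd14 less the median of the others -1.74.

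The other sign changes follow. With marked spots left out before scaling, early life against control gave Aif1 0.16, Cd68 0.15, Csf1r 0.26 and Fcer1g 0.16, early life against peripubertal Cd68 0.14, and peripubertal against control Cd68 0.01. Median centring gave Csf1r 0.10 for early life against control and Cd68 0.02 for peripubertal against control. Without spots in raised or lowered patches, Aif1 was 0.33 and Csf1r 0.15 for early life against control and Aif1 0.14 for early life against peripubertal. Without the array of early life 3 and 4, Aif1 was 0.33 and 0.14 in those comparisons. Without the array of peripubertal 3 and 4, Aif1 was 0.14 and Cd68 0.18 for early life against peripubertal, where Cd14 less the median of the others was 1.20, and peripubertal against control gave Aif1 -0.31, Csf1r -0.08, Fcer1g -0.12 and Tyrobp -0.34. Without the array of peripubertal 1 and 2, Cd68 was 0.06 against control. Without the array of control 1 and 2, Cd14 was -0.14 for peripubertal and Csf1r 0.15 for early life, and without that of control 3 and 4, Tyrobp was -0.03 for peripubertal. No marker passed without any 1 sample. Values that changed sign there ran, for early life against control, from -0.54 to 0.01 for Aif1, -0.30 to 0.07 for Csf1r and -0.41 to 0.03 for Fcer1g, for early life against peripubertal from -0.19 to 0.12 for Cd68, and for peripubertal against control from -0.01 to 0.38 for Aif1, -0.26 to 0.37 for Cd14, -0.26 to 0.01 for Cd68, -0.01 to 0.47 for Lyz2 and -0.14 to 0.51 for Tyrobp. Calls over all genes (early life against control 18, then peripubertal against control 4, then early life against peripubertal 24) were 607, 20 and 1330 without the array block, 3065, 0 and 315 with marked spots left out before scaling, 126, 20 and 151 when probes of a gene were averaged, 4, 0 and 6 with median centring, 0, 0 and 1 with every sample required above background, and 1934, 0 and 2376 without the array of early life 3 and 4. Calls over all genes without 1 sample numbered 6 to 280, 0 to 3 and 6 to 751 for early life against control, peripubertal against control and early life against peripubertal.

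With group and dye means taken off, 0 of 12 pairs of samples with the same replicate number had a correlation over 0.1 (from -0.285 to 0.058). Taking these means off pulls such correlations below 0, so a moderate pairing could be missed. The number was used only to name a sample. With the replicate number as a block, Cd14 was at 1.28 and 1.18 (adjusted p = 0.2 and 0.161), and calls over all genes were 10, 0 and 6, against 18, 4 and 24. Apart from changes that follow from fewer samples, the cause of these shifts was not tested.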

Other observations

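Cd79a, a chain of the B cell receptor, was the gene nearest the threshold among the lists of other cell types. It averaged 9.37 ± 0.58 in early life, 8.14 ± 0.11 in peripubertal and 7.96 ± 0.14 in control samples (SD, n = 4 each), a log2 difference of 1.41 for early life against control (SE 0.24, limma adjusted p = 0.0593) and 1.23 for early life against peripubertal (SE 0.24, limma adjusted p = 0.064). The list as a whole did not share its sign: 2 of 4 B cell genes were positive for early life against control, with a median of -0.01, Cd22 at 0.43 (SE 0.15) and Blnk, an adaptor of the receptor, at -0.45 (SE 0.32). Cd3e, a chain of the T cell receptor complex, differed by -0.09 for early life against control (SE 0.31).

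The other lists of cell types had no gene past the threshold in any comparison. For early life against control, 2 of 5 T cell genes were positive (median -0.09), 2 of 4 dendritic cell genes (0.02), 3 of 3 mast cell genes (0.24), 2 of 10 endothelial genes (-0.25), 5 of 8 fibroblast genes (0.28), 6 of 7 folliculostellate and stem cell genes (0.18) and 8 of 11 hormone genes (0.04), beside 53.5% of all genes.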
